A study of Mus musculus with 33 samples.

Results

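Mammary organoids labelled Cdh1F/F;Trps1F/F were compared with organoids labelled Cdh1+/F;Trps1F/F at day 28 of culture. The comparison uses 4 of the 33 RNA-seq libraries of the series, 2 per genotype, chosen by genotype and day alone. In the first group both alleles of Cdh1 were floxed, and in the second group 1 allele was floxed and the other was wild type. Both alleles of Trps1 were floxed in all 4 libraries, so the groups differ by the second floxed Cdh1 allele and not by Trps1. All organoids were primary mouse mammary cultures grown in Matrigel, transduced with an adenovirus that expresses the Cre recombinase (AdCre) and harvested 28 days later. The virus carries no label of the cell type it enters, so recombination was not limited to epithelium by a promoter named in the labels. No source used here gives the ages of the mice, how many mice a culture came from or the share of cells that recombined. Nothing says that the 2 libraries of a group came from separate cultures. The p-values rest on the spread between libraries of a group, pooled over all 6 organoid groups and drawn toward a trend over all genes. Part of that spread may be technical only. The same genotypes at day 14, with 2 libraries each, are the most similar comparison and share no library with this one.

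Cdh1 encodes E-cadherin, the adhesion molecule that joins epithelial cells at adherens junctions and binds the actin cytoskeleton through catenins. Trps1 encodes a GATA-type zinc finger protein that represses transcription. The mammary epithelium has luminal cells, which line the lumen and make milk, and basal cells, which lie on the basement membrane and contract. Primary mammary preparations can also hold fibroblasts, fat cells, muscle, vessels and immune cells of the fat pad.

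The floxed genes themselves were measured first. Trps1 (chromosome 15, 50654752 to 50890463, minus strand, GRCm38) had 2401 and 2123 normalised counts in libraries labelled Cdh1F/F, against 699.9 and 1049.8 in those labelled Cdh1+/F. Both libraries labelled Cdh1F/F lay above both labelled Cdh1+/F, and the log2 difference was 1.40 ± 0.18 (SE), with an adjusted p of 2.39e-05 by limma with Benjamini-Hochberg adjustment, as for all adjusted p-values below. Cdh1 (chromosome 8, 106603351 to 106670246, plus strand) had 14402 and 15724 normalised counts in libraries labelled Cdh1F/F, against 8413 and 9123 in those labelled Cdh1+/F. Its messenger RNA was thus higher in the group with 2 floxed alleles, by 0.78 ± 0.09 on the log2 scale (adjusted p = 5.34e-06), and the groups did not overlap. The count covers the whole gene, and no source used here names the exons between the loxP sites, so it does not show how much of the transcript was intact. Because this direction goes against a loss of Cdh1, groups are called by their labels throughout, and every direction below is that of the labels. At day 14 the log2 difference of Cdh1 was 0.08, and the difference between days was 0.70 (adjusted p = 0.00163).

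The 4 libraries held 20332772 and 16929022 reads in genes for the label Cdh1F/F and 14858175 and 24826253 for Cdh1+/F. Values are normalised counts, that is reads times 1 factor per library, and a log2 difference is Cdh1F/F minus Cdh1+/F on the scale of log2(normalised count + 1), which understates changes of genes with few reads. Counting error alone did not account for the spread within a group: the chi-square of the 2 replicates, divided by its degrees of freedom, was 15.1 for Cdh1F/F and 8.75 for Cdh1+/F. Mitochondrial transcripts held 3.34% and 4.43% of reads in the libraries labelled Cdh1F/F, against 4.20% and 4.80% in those labelled Cdh1+/F, so these ranges overlap.

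Of 15860 genes tested, 8993 changed (56.7%), of which 4395 rose (27.7%) and 4598 fell (29.0%) in the libraries labelled Cdh1F/F. These shares are the background against which the counts of each gene group are read. With quantile normalisation the median difference over all genes moved to 0.15 from 0.02, and the share of raised genes among the calls was 61.8%, against 48.9% here. The falls were larger than the rises: 2940 genes (18.5%) fell and 1285 (8.10%) rose by 2-fold or more, and 743 fell and 19 rose by 16-fold or more. Groups did not overlap in 76.6% of the genes tested. Calls were spread over the genome, with 51.7% to 62.3% of genes called on each chromosome. Within 5 Mb of Cdh1, 35 of 114 genes rose and 29 fell, a share of 56.1% called, and within 5 Mb of Trps1, 9 of 19 rose and 5 fell.

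**Figure D1:**
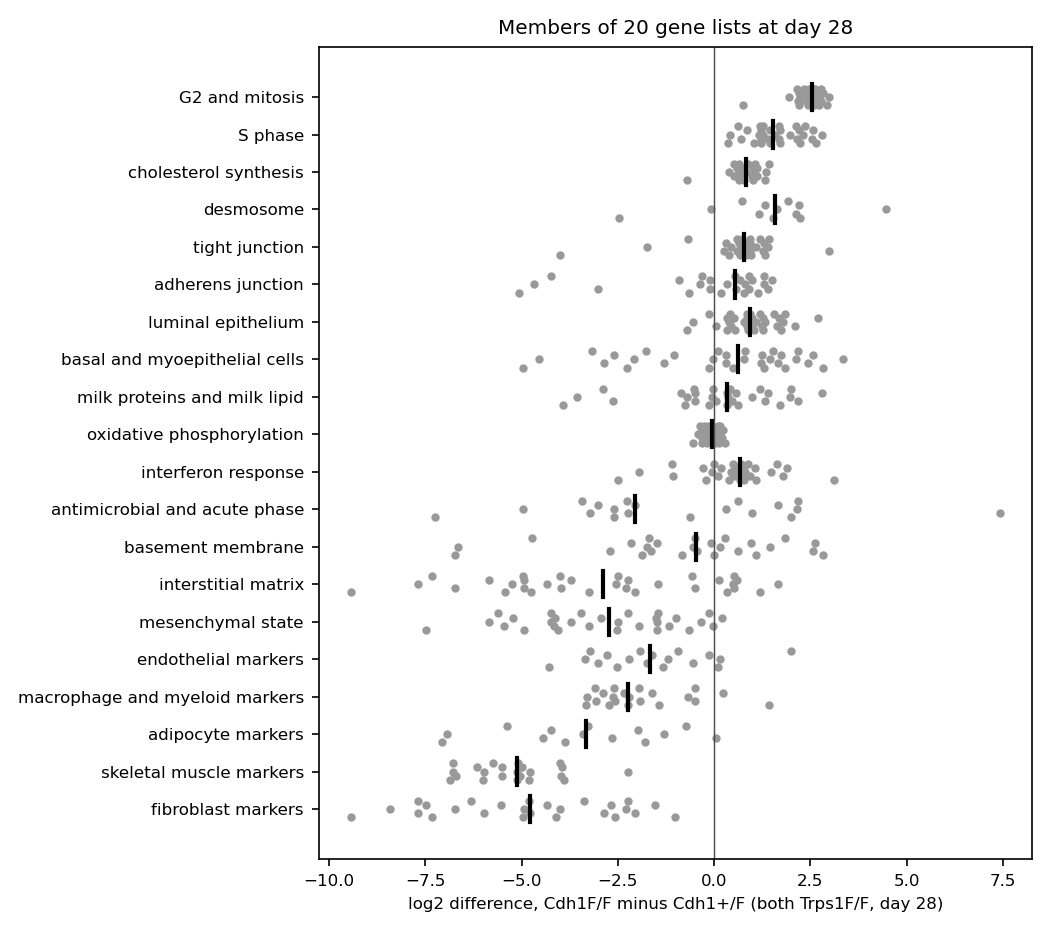
Log2 difference (Cdh1F/F minus Cdh1+/F, both Trps1F/F, day 28) of each tested member of 20 gene lists; grey points are genes and the black bar is the median of the list. All skeletal muscle members lie below 0 and all S phase and mitosis members lie above it, while the median of all 15860 genes is 0.02.

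The largest falls and rises were named only among genes whose groups did not overlap and whose mean in the higher group was above the median of genes. Clone names, predicted genes, pseudogenes, mitochondrial genes and names ending in Rik were left out. The 12 largest falls under this naming rule included several genes of connective tissue. Lumican (Lum), a small proteoglycan that spaces collagen fibrils, had 23.7 and 36.6 normalised counts in libraries labelled Cdh1F/F, against 23110.2 and 19157 in those labelled Cdh1+/F. The 2 groups were far apart, and Lum fell by 9.43 ± 0.21 on the log2 scale (adjusted p = 5.31e-12). Contactin 1 (Cntn1), a cell adhesion molecule best known from neurons, fell to 17.6 and 12.6 normalised counts in libraries labelled Cdh1F/F, against 9597 and 8394 in those labelled Cdh1+/F (565-fold lower, adjusted p = 7.54e-12). Complement component C7 fell 571-fold, with 5.16 and 3.78 normalised counts in libraries labelled Cdh1F/F, against 3408 and 2815 in those labelled Cdh1+/F. The sushi repeat protein gene Srpx was 539-fold lower (3.1 and 3.78 against 2607 and 2185 normalised counts) and the cartilage matrix protein gene Cilp 302-fold lower (10.3 and 36.6 against 7104 and 5461). In all of these the groups were far apart.

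Several of the genes with the largest falls were at or near 0 in the libraries labelled Cdh1F/F, where a fitted fold depends on the added count. Carbonic anhydrase 3 (Car3), an enzyme abundant in muscle and fat, had no read in either library labelled Cdh1F/F, against 739 and 536 normalised counts in those labelled Cdh1+/F, which makes it at least 374-fold lower when 3 counts over the group are taken as the floor. The microfibril protein gene Mfap4 had 1.03 and 2.52 normalised counts in libraries labelled Cdh1F/F, from 3 reads in all, against 2403 and 1874 in those labelled Cdh1+/F, a ratio of 1216 with a 95% counting interval from 416 to 5898 (Cdh1+/F over Cdh1F/F). Keratocan (Kera), a proteoglycan first known from the cornea, and the collagen VI chain gene Col6a5 had 1 read each over both libraries labelled Cdh1F/F. Their counts were 646 and 717 and 649 and 676 in the libraries labelled Cdh1+/F, ratios of 1216 (interval 218 to 48083) and 1173 (interval 210.1 to 46372). The steroid dehydrogenase gene Akr1c14, the membrane lectin gene Chodl and the fibrinogen-like gene Fgl2 completed the 12 largest falls, with log2 differences of -8.76, -8.29 and -8.18. All adjusted p-values of these 12 genes were below 1e-08.

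The 12 largest rises under the same naming rule were smaller and included several genes known from barrier epithelia. They do not hold all of the 19 genes that rose 16-fold or more. Beta-defensin 1 (Defb1), a secreted antimicrobial peptide, had 787 and 750.5 normalised counts in libraries labelled Cdh1F/F, against 1.5 and 7.12 in those labelled Cdh1+/F. It was the largest rise, 7.42 ± 0.40 on the log2 scale (adjusted p = 5.59e-09). The libraries labelled Cdh1+/F held only 1 and 8 reads of Defb1, so the size of this rise depends on the added count. Desmoglein 3 (Dsg3), an adhesion molecule of desmosomes in stratified epithelium, rose to 3976 and 3778 normalised counts in libraries labelled Cdh1F/F, against 147 and 205 in those labelled Cdh1+/F (22.2-fold, adjusted p = 7.15e-10). Insulin-like growth factor binding protein 3 (Igfbp3) rose 18.7-fold, with 5819 and 4844 normalised counts in libraries labelled Cdh1F/F, against 291 and 276 in those labelled Cdh1+/F. The other raised genes included Dmkn, which encodes the epidermal secreted protein dermokine (17.4-fold), and the epidermal lipoxygenase gene Alox12e (16.5-fold). The epithelial glutathione peroxidase gene Gpx2 rose 37.6-fold, with 544 and 559 against 10.5 and 17.8 normalised counts, and the annexin gene Anxa8 rose 12.7-fold, with 10268 and 8149.5 against 653 and 789. Ugt8a, which makes galactosylceramide, rose 58.3-fold, the sialyltransferase gene St8sia6 16.3-fold, the adhesion receptor gene Gpr128 15.4-fold, the gluconeogenic enzyme gene Fbp1 12.9-fold and the death ligand gene Tnfsf10 11.8-fold.

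**Figure D2:**
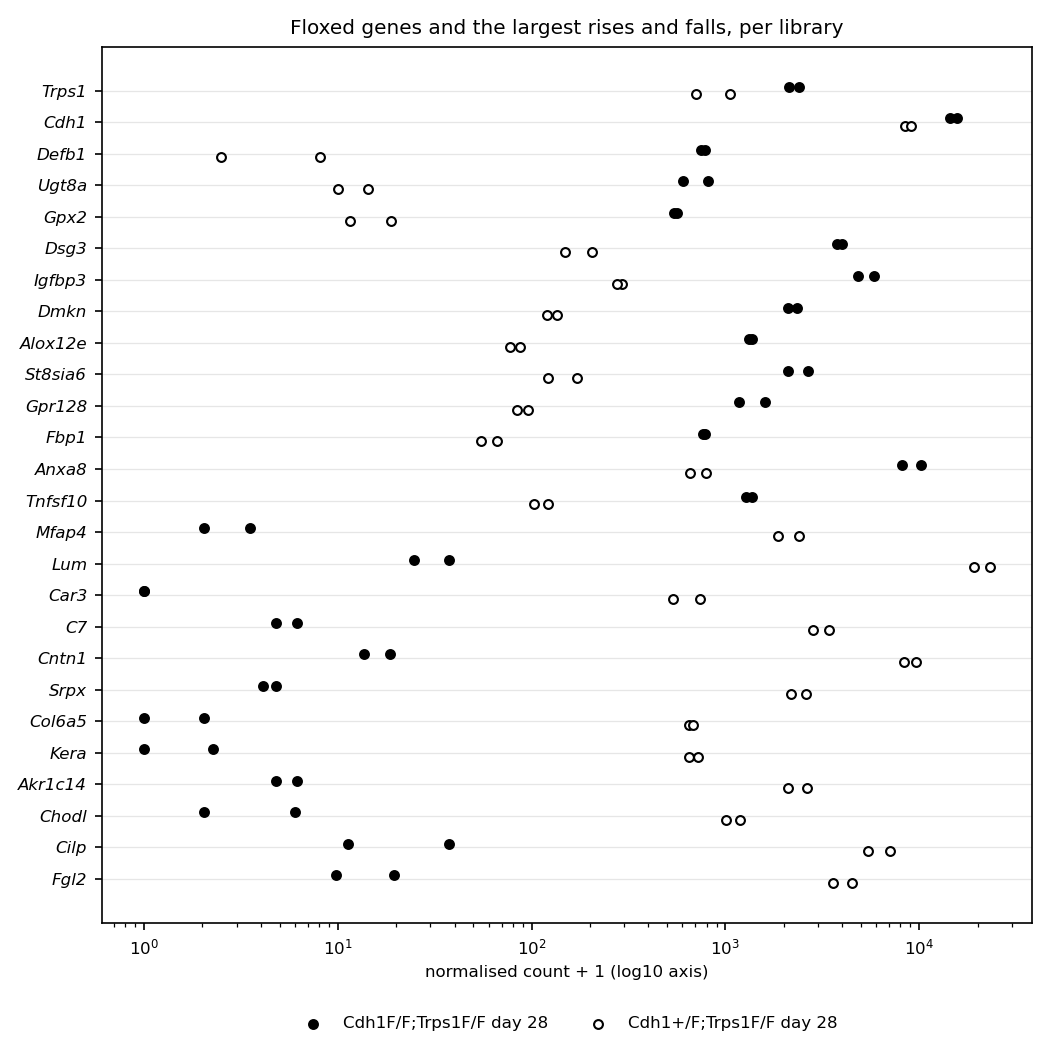
Normalised counts plus 1 on a log10 axis in each of the 4 libraries, for the 12 largest rises and the 12 largest falls under the naming rule of the text. Trps1 and Cdh1 are on top. Filled circles are libraries labelled Cdh1F/F;Trps1F/F and open circles those labelled Cdh1+/F;Trps1F/F. The 2 libraries of a group lie close together in most genes, and the lowered genes have between 0 and 40 normalised counts in libraries labelled Cdh1F/F.

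Markers of non-epithelial cells fell together. Of 26 fibroblast markers 25 fell and none rose (median log2 difference -4.79), and their summed level was 27786 and 25093 normalised counts in libraries labelled Cdh1F/F, against 586189 and 486850 in those labelled Cdh1+/F. That is 0.133% and 0.118% of all normalised counts against 2.63% and 2.21%. The collagen genes led in counts: Col3a1 had 947 and 1020.4 normalised counts in libraries labelled Cdh1F/F, against 174262 and 143119 in those labelled Cdh1+/F, and Col1a2 had 306 and 329 against 74464 and 58392. Pdgfra, a platelet-derived growth factor receptor of fibroblasts, had 3847 and 2897 normalised counts in libraries labelled Cdh1F/F, against 26075 and 22423 in those labelled Cdh1+/F (7.24-fold lower). Of the 26, only the proteoglycan gene Ogn had no read in both libraries labelled Cdh1F/F, against 395 and 298 normalised counts in those labelled Cdh1+/F, and decorin (Dcn) still held 2223 and 4242 normalised counts there, against 61692 and 62654 in those labelled Cdh1+/F. In bulk RNA, fewer cells of a type and less RNA per cell cannot be told apart.

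Skeletal muscle genes were present in the libraries labelled Cdh1+/F and low in those labelled Cdh1F/F. All 22 tested muscle markers fell (median log2 difference -5.12), and their sum was 2108 and 1351 normalised counts in libraries labelled Cdh1F/F, against 84442 and 65122 in those labelled Cdh1+/F. The fast myosin heavy chain gene Myh1 had 82.6 and 53 normalised counts in libraries labelled Cdh1F/F, against 8813 and 6925 in those labelled Cdh1+/F. The giant sarcomere protein gene titin (Ttn) had 78.5 and 68.1 against 4231 and 3663, and the muscle-determining factor Myod1 had 8.26 and 6.31 against 287 and 182. Genes of muscle precursors and of mature fibres were thus both low in the libraries labelled Cdh1F/F.

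Fat cell markers fell in 13 of 14 cases (median -3.34, and -2.26 with a pseudocount of 8). Their sum was 3967 and 4060 normalised counts in libraries labelled Cdh1F/F, against 13070 and 12189 in those labelled Cdh1+/F. Without library a or b of Cdh1+/F only 11 members were tested (medians -2.71 and -2.61). The members lost there passed the filter only with Cdh1+/F libraries, so their falls are no independent support. Of the 14, Cfd and Retn had no read in both libraries labelled Cdh1F/F. The adipokine gene Adipoq had 3.1 and 0 normalised counts in libraries labelled Cdh1F/F, against 341 and 216 in those labelled Cdh1+/F, and the lipid droplet protein gene Plin1 had 14.5 and 11.4 against 314 and 282. Of 21 myeloid markers 16 fell and 1 rose (median -2.24, and -1.33 with quantile normalisation), with a sum of 1722 and 1086 against 6356 and 7539: the pan-leukocyte gene Ptprc had 16.5 and 27.7 against 210.3 and 238 and the lysozyme gene Lyz2 845 and 522 against 2732 and 3626. Of 18 endothelial markers 12 fell and 1 rose (median -1.67), but with quantile normalisation 8 fell and 3 rose (median -0.45), and with a pseudocount of 8 the median was -0.86. Tie1, Cldn5, Sox18 and Robo4 had no read in both libraries labelled Cdh1F/F, and at most 12 normalised counts in those labelled Cdh1+/F, while the endothelial adhesion gene Pecam1 had 70.2 and 60.5 against 55.6 and 61.4, and its groups overlapped. Only 4 of 16 lymphocyte markers were expressed enough to test. Of these, 3 fell (median -1.85). Without library a or b of Cdh1+/F only 3 were tested (medians -1.21 and -1.78). The member lost in each case passed the filter only with the library left out. Of 8 tested nerve and Schwann cell markers 4 rose and 2 fell. Sox10 and Erbb3, which rose, are also expressed in mammary epithelium, while the nerve growth factor receptor gene Ngfr fell 71.3-fold.

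Matrix and mesenchymal genes moved with the fibroblast markers, which they partly share. Of 30 genes of the mesenchymal state 27 fell and none rose (median -2.73). The collagen cross-linking enzyme gene Lox fell 57.2-fold, with 268 and 274 normalised counts in libraries labelled Cdh1F/F, against 17544 and 13802 in those labelled Cdh1+/F, and the gelatinase gene Mmp2 fell 43.6-fold, with 1609 and 1684 against 80437 and 64085. Of 32 interstitial matrix genes 24 fell and 7 rose (median -2.90). Biglycan (Bgn), a matrix proteoglycan, had 3637 and 3626 against 102667 and 93869. Of 28 matrix proteases and inhibitors 21 fell and 4 rose, among them the aggrecan-cleaving Adamts5 (29.0-fold lower), the collagenase gene Mmp13 (22.1-fold lower) and the osteoclast and fibroblast protease gene Ctsk (35.8-fold lower). Basement membrane genes split, with 13 of 26 lower and 8 higher. The muscle laminin chain gene Lama2 fell 100.2-fold and the nidogen gene Nid2 26.5-fold, while Lamb3, a chain of the epithelial laminin that anchors hemidesmosomes, rose 5.93-fold, with 6797 and 6865 normalised counts in libraries labelled Cdh1F/F, against 1111 and 1193 in those labelled Cdh1+/F.

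To set the rises that follow against a common reference, 20 epithelial genes were taken as a set after the results had been seen. Their median log2 level was 12.65 and 12.54 in libraries labelled Cdh1F/F, against 11.16 and 11.19 in those labelled Cdh1+/F. All 20 rose, by a median of 1.32 on the log2 scale (0.35 to 2.45). Because they were chosen with the results known, this is a description and no test. Of all genes tested, 905 rose by more than 1.32. When the libraries were scaled to a common median of these 20 genes, called the epithelial scale below, 433 genes rose and 14208 fell, and the median over all genes was -1.40. These counts, out of 15860 genes, and this median are the background for each list value given on that scale. On that scale the log2 difference of Cdh1 was -0.64 and that of Trps1 was -0.02. The rise of Cdh1 was thus smaller than the shift between the scales and that of Trps1 was close to it. Some of the 20, among them Krt8, Krt5, Dsp, Jup and Cldn7, are themselves members of the luminal, basal and junction lists, whose values on the epithelial scale are therefore not independent of it. The summed fibroblast, muscle, fat cell and myeloid levels given above were all lower in the libraries labelled Cdh1F/F, in which the epithelial and proliferation lists had median differences above 0, and their part in those results was not tested.

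Genes of cell junctions, to which E-cadherin belongs, mostly rose. Of 29 tested tight junction genes 26 rose and 3 fell (median 0.77), against 27.7% and 29.0% of all genes. On the epithelial scale 1 rose and 22 fell (median -0.65). There 433 of all 15860 genes rose and 14208 fell (median -1.40). The claudin genes Cldn7 and Cldn3, which seal the space between cells, had 3445 and 3374 and 3321 and 3039 normalised counts in libraries labelled Cdh1F/F, against 1290.1 and 1240.2 and 1139.9 and 1257 in those labelled Cdh1+/F. The lipoprotein receptor Lsr and Marveld2, both parts of tricellular junctions, rose 2.47-fold and 1.92-fold. The exceptions were Cldn15, a claudin of gut epithelium that forms ion pores, which fell to 18.6 and 41.6 against 479 and 450.2, Cldn2 (105 and 66.9 against 128 and 141) and Cldn5 of endothelium, which had no read in libraries labelled Cdh1F/F and at most 2 reads in each labelled Cdh1+/F.

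Of 12 desmosome genes 10 rose and 1 fell (median 1.58), and on the epithelial scale 4 rose and 4 fell (median 0.17). Besides Dsg3, the plaque gene plakophilin 1 (Pkp1) rose 4.58-fold, with 16931 and 14517 normalised counts in libraries labelled Cdh1F/F, against 3268 and 3583 in those labelled Cdh1+/F. Desmoplakin (Dsp), which links desmosomes to keratin filaments, had 23078 and 20251 against 8323 and 8945, and the p53-induced desmosome gene Perp had 13419 and 11316 against 2887 and 2744. Desmocollin 1 (Dsc1), at low counts, was the 1 that fell (5.16 and 10.1 against 39.0 and 51.6). Dsg1a (27.9 and 29.0 against 4.51 and 6.23) is uncertain, since its gene has near copies next to it.

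Adherens junction genes were divided: 14 of 25 rose and 8 fell (median 0.55), and on the epithelial scale none rose and 21 fell (median -0.87). P-cadherin (Cdh3), the classical cadherin of basal mammary cells, had 1638 and 1491 normalised counts in libraries labelled Cdh1F/F, against 623 and 657 in those labelled Cdh1+/F, which is 2.44-fold higher (adjusted p = 1.6e-08). Plakoglobin (Jup), the catenin shared with desmosomes, rose 2.66-fold and alpha-catenin (Ctnna1) 1.49-fold. Beta-catenin (Ctnnb1), with 37498 and 35180.1 against 31859.9 and 32549, was not called (adjusted p = 0.12), although its groups did not overlap. The cadherins that fell are known mainly from other cells: Cdh11 of mesenchyme fell 18.8-fold, Cdh13 33.8-fold, Cdh5 of endothelium 8.14-fold and N-cadherin (Cdh2) 1.57-fold. The nectin genes Pvrl2 and Pvrl4 and the afadin gene Mllt4 rose 1.99-fold, 2.2-fold and 1.75-fold, while vinculin (Vcl) fell 1.25-fold.

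**Figure D3:**
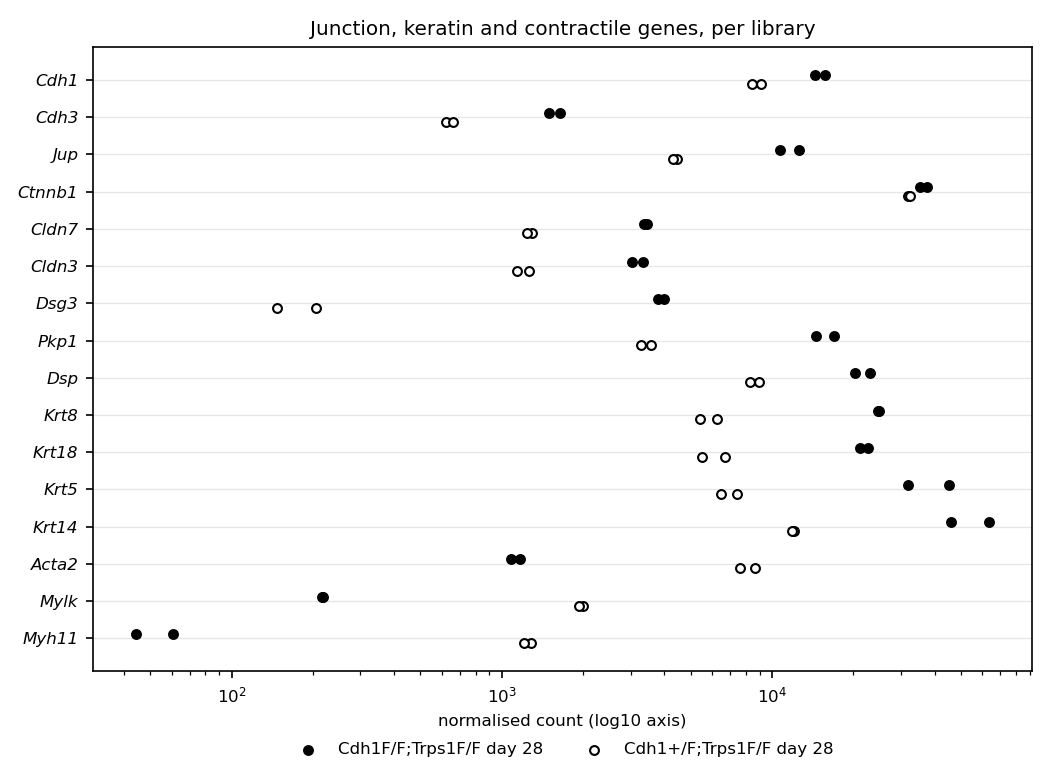
Normalised counts on a log10 axis in each library for 16 junction, keratin and contractile genes; filled circles are libraries labelled Cdh1F/F;Trps1F/F and open circles those labelled Cdh1+/F;Trps1F/F. Junction genes and keratins lie to the right in libraries labelled Cdh1F/F, and the contractile genes Acta2, Mylk and Myh11 lie to the left.

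Luminal and basal keratins both rose. Of 35 luminal genes 29 rose and 2 fell (median 0.95). On the epithelial scale 5 rose and 20 fell (median -0.47, against -1.40 over all genes). The luminal keratin genes Krt8 and Krt18 had 24606 and 24881 and 21197 and 22647 normalised counts in libraries labelled Cdh1F/F, against 5417 and 6236 and 5525 and 6711 in those labelled Cdh1+/F. Krt7 rose 6.53-fold. The epithelial surface gene Epcam rose 1.93-fold, with 19781 and 21059 against 10101 and 11112. The epithelial splicing regulator gene Esrp1 and the epithelial transcription factor gene Grhl2 rose 1.97-fold and 1.9-fold.

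Of 32 basal genes 18 rose and 10 fell (median 0.62), with 9 higher and 18 lower on the epithelial scale (median -0.80). Among the genes that rose, Krt5 had 45092 and 31764 normalised counts in libraries labelled Cdh1F/F, against 7419 and 6458 in those labelled Cdh1+/F, Krt14 63768 and 45926 against 12115 and 11849, Krt17 4219 and 3478 against 427 and 326, and Col17a1, a transmembrane collagen of hemidesmosomes, 26123 and 19531 against 3116 and 3212. The basal transcription factor gene Trp63 rose 3.32-fold and the hemidesmosome integrin gene Itgb4 4.4-fold. Among those that fell, smooth muscle actin (Acta2) had 1164 and 1082 against 8622 and 7599, the myosin kinase gene Mylk 219 and 216 against 1994 and 1929 and the smooth muscle myosin gene Myh11 60.9 and 44.1 against 1286 and 1205. Acta2, Mylk and Myh11 are expressed in smooth muscle as well as in myoepithelium.

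Of 29 tested cornification genes 15 rose and 3 fell (median 1.24, but 0.76 with a pseudocount of 8 and 1.99 with quantile normalisation), against 5 and 11 on the epithelial scale (median -0.18). Periplakin (Ppl) and envoplakin (Evpl), which scaffold the cornified envelope, rose 4.22-fold and 3.18-fold, and the cross-linking enzyme gene Tgm1 had 94.0 and 121 against 39.0 and 26.7 normalised counts. Krt16 rose 5.45-fold and Krt6a 9.53-fold, the second being uncertain because Krt6b is a near copy. Krt4 of internal stratified epithelium fell to 2.06 and 3.78, against 24.0 and 24.0 in libraries labelled Cdh1+/F.

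Of 18 tested channel and secretory genes 12 rose and 1 fell (median 1.01), against 5 and 9 on the epithelial scale (median -0.41). The water channel genes Aqp5 and Aqp3 had 4348 and 5551 and 109 and 112 normalised counts in libraries labelled Cdh1F/F, against 491 and 540.1 and 7.51 and 6.23 in those labelled Cdh1+/F, and the calcium-activated chloride channel gene Ano1 had 5763 and 5246 against 1736 and 1739. Milk genes moved both ways, with 13 of 30 higher and 8 lower (median 0.34, 0.17 without library 1 of Cdh1F/F, and -1.08 on the epithelial scale). Kappa-casein (Csn3), which stabilises the casein micelle, fell 15.2-fold, with 886 and 888 normalised counts in libraries labelled Cdh1F/F, against 12922 and 14132 in those labelled Cdh1+/F, while lactoferrin (Ltf) and alpha-lactalbumin (Lalba) rose 4.51-fold and 2.66-fold. The transcription factor gene Stat5a, which acts below the prolactin receptor, rose 1.5-fold.

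Cell division genes rose as a whole list. All 32 S phase genes (median 1.52) and all 32 G2 and mitosis genes (median 2.55) rose. On the epithelial scale 31 of the 32 mitosis genes still rose and 1 fell (median 1.13), while 13 S phase genes rose and 8 fell (median 0.10). The summed level of the mitosis genes was 43014 and 38755 normalised counts in libraries labelled Cdh1F/F, against 6468 and 8254 in those labelled Cdh1+/F, which is 5.55-fold. Anln, the cytokinesis scaffold anillin, had 3592 and 3066 normalised counts in libraries labelled Cdh1F/F, against 381 and 464 in those labelled Cdh1+/F. Cyclin A2 (Ccna2) had 1931 and 1767 against 252 and 309.6, and Foxm1, which activates mitotic genes, 1008 and 861 against 138 and 169. Of the S phase genes, the ribonucleotide reductase gene Rrm2 rose 5.79-fold and the replication licensing gene Mcm6 4.69-fold. The cell cycle inhibitor gene Cdkn1a fell 2.77-fold, with 1655 and 1678 against 4600.1 and 4650.5.

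The promoters of the 4 raised mitosis genes with the largest differences among those matched to the promoter table are shown because CCAAT boxes, bound by the factor NF-Y, and cell cycle homology regions, bound by the MuvB complex, are textbook elements of such genes. Each is the 120 bases before the RefSeq start on the coding strand (RefSeq, GRCm38.p6), with the box letters CCAAT in capitals on either strand. The cell cycle homology letters TTTGAA, and their variant TTTAAA on either strand, are in capitals too. They lie at chr9:22389207-22389326 (minus strand) for Anln, chr9:61946800-61946919 (minus strand) for Kif23, chr2:164769809-164769928 (plus strand) for Ube2c and chr13:100786487-100786606 (minus strand) for Ccnb1.
Anln: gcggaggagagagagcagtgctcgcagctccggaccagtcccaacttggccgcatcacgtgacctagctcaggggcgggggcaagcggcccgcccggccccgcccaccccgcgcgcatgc
Kif23: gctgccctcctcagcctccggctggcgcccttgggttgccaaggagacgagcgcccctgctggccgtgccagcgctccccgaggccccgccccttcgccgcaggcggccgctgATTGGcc
Ube2c: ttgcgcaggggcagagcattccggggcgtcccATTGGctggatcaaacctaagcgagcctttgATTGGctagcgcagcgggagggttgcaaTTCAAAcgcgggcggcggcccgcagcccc
Ccnb1: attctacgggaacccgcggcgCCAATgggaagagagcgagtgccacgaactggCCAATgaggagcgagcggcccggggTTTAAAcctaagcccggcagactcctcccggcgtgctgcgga
The ubiquitin-conjugating enzyme gene Ube2c and the cyclin B1 gene Ccnb1 each held 2 CCAAT boxes and 1 cell cycle homology sequence in this window, the kinesin gene Kif23 held 1 CCAAT box and no homology sequence, and Anln held neither. Over the 250 bases before the start, CCAAT was found on either strand in 21 of 27 mitosis genes that matched the table (77.8%) and in 15 of 24 S phase genes (62.5%), against 37.5% of all 27025 genes. The letters TTTGAA or TTTAAA were found in 13 of 27 mitosis genes (48.1%), 5 of 24 S phase genes (20.8%) and 5 of 15 fibroblast markers (33.3%), against 28.1% of all genes. They were found in 5 of 23 tight junction genes (21.7%), 2 of 16 cholesterol genes (12.5%) and 2 of 18 muscle markers (11.1%). A match describes letters only. No motif overlapped another in the windows shown.

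Of 23 genes of cholesterol synthesis, 22 rose and 1 fell (median 0.84). On the epithelial scale none rose and 20 fell (median -0.58, against -1.40 over all genes). The farnesyl diphosphate synthase gene Fdps had 3087 and 2909.9 normalised counts in libraries labelled Cdh1F/F, against 1192 and 1033 in those labelled Cdh1+/F, a log2 difference of 1.43 ± 0.10 (adjusted p = 6.26e-08). The groups did not overlap. The squalene epoxidase gene Sqle rose 1.97-fold. The difference of these genes also differed between days, as described below. All 16 promoters of the list that matched held CCAAT within 250 bases, and the 120 bases before the start of 3 of the matched members with the largest differences are shown for that reason, with CCAAT on either strand in capitals. They lie at chr13:8885486-8885605 (plus strand) for Idi1, chr19:6067851-6067970 (minus strand) for Tm7sf2 and chr3:89454421-89454540 (plus strand) for Pmvk.
Idi1: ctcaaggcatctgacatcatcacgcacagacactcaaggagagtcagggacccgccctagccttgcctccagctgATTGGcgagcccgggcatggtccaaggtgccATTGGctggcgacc
Tm7sf2: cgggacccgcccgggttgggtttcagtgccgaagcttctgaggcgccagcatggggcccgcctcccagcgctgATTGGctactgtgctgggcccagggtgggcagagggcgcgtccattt
Pmvk: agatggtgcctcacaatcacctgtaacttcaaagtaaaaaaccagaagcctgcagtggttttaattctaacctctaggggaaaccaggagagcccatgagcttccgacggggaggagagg
Idi1 (isopentenyl diphosphate isomerase) held 2 CCAAT boxes and Tm7sf2 (a sterol reductase) 1, while Pmvk (phosphomevalonate kinase) held none in the 120 bases shown. CCAAT was found in 3 of 15 fibroblast marker promoters and 4 of 18 muscle marker promoters. Of the tight junction list, most of which rose, 9 of 23 promoters held it (39.1%), against 37.5% of all genes. Fatty acid genes did not follow the cholesterol genes, with 5 of 20 higher (25%) and 9 lower (45%), against 27.7% and 29.0% of all genes. Their median was -0.13, and 7 were higher and 8 lower with quantile normalisation and with voom. Acacb, a mitochondrial acetyl-CoA carboxylase, fell 6.57-fold.

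Growth factor genes were divided between the groups. The insulin-like growth factors Igf1 and Igf2, made mainly by stromal cells, had 74.3 and 95.9 and 349 and 299 normalised counts in libraries labelled Cdh1F/F, against 5495 and 4700.3 and 7132 and 5679 in those labelled Cdh1+/F. Of 41 genes of ERBB and growth factor signalling 19 rose and 14 fell (median 0.21, 0.13 to 0.40 without 1 library at a time, 0.45 with quantile normalisation, and -1.21 on the epithelial scale). The EGF receptor gene Egfr fell 3.4-fold while its ligand gene Tgfa rose 3.89-fold and the feedback phosphatase gene Dusp4 3.54-fold. Of 41 genes of Wnt, Notch and TGF-beta signalling 22 rose and 11 fell (median 0.59, 1.15 with quantile normalisation, and -0.83 on the epithelial scale). The Notch ligand gene Dll1 and the Notch target gene Nrarp rose 3.21-fold and 9.64-fold, Wnt10a rose 8.91-fold, and the Wnt enhancer gene Rspo1 fell 21.4-fold. YAP and TAZ targets were split, 10 of 22 higher and 9 lower (median 0.12, -0.01 without library 2 of Cdh1F/F, and -1.30 on the epithelial scale). Of 20 immediate early genes 12 rose and 2 fell (median 0.37, and -1.05 on the epithelial scale).

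Genes of innate defence moved in both directions. Serum amyloid A3 (Saa3), an acute phase protein, had 3184 and 5426 normalised counts in libraries labelled Cdh1F/F, against 141842 and 120317 in those labelled Cdh1+/F, which is 31.4-fold lower (adjusted p = 4.38e-08). Saa1 and Saa2, near copies whose counts are uncertain, also fell. Complement C3 fell 10.7-fold, the lectin gene Reg3g fell to 2.06 and 3.78, against 464 and 717, and the alarmin gene Il33 fell 51.6-fold. Of 19 antimicrobial and acute phase genes 10 fell and 6 rose (median -2.06, but -1.09 with a pseudocount of 8, -0.91 with quantile normalisation and -3.48 on the epithelial scale), with Defb1, Ltf and Wfdc2 (4.47-fold) among those that rose. Of 31 interferon response genes 19 rose and 4 fell (median 0.66). Ifi44 (8.71-fold) and the RNA sensor gene Ddx58 (2.1-fold) were among those that rose, and Ifit2 (3.89-fold lower) among those that fell. On the epithelial scale 2 rose and 25 fell (median -0.76, against -1.40 over all genes), and Ddx58 was at -0.35. Of 20 antigen presentation genes 11 fell and 3 rose, and beta-2 microglobulin (B2m) had 15691 and 14082 against 38258 and 40952.

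Of 31 oxidative phosphorylation genes 23 were not called, 7 fell and 1 rose (median -0.06, and 0.01 with voom). The succinate dehydrogenase subunit gene Sdha had 4151 and 4101 against 5313 and 4851. On the epithelial scale all 31 fell (median -1.48, against -1.40 over all genes). Unfolded protein response genes had a median of 0.08 (0.01 to 0.12 without 1 library at a time, 0.15 with voom, and -1.34 on the epithelial scale). In that list 8 of 28 were higher (28.6%) and 6 lower (21.4%), against 27.7% and 29.0% of all genes. The stress factor gene Ddit3 fell 1.95-fold. Of the 25 genes of the GATA family and its corepressors 12 rose and 5 fell (median 0.15, up to 0.28 without library 1 of Cdh1F/F, and -1.27 on the epithelial scale). Gata3, the luminal GATA factor, had 1797 and 2046 normalised counts in libraries labelled Cdh1F/F, against 976 and 1145 in those labelled Cdh1+/F. Gata2 and Gata6, which are known from other tissues, fell 31.5-fold and 25.0-fold, while the corepressor genes Chd4 (10993 and 11424 against 10531 and 11169) and Hdac2 (2935 and 3514 against 2835 and 2965) were not called.

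The day 28 difference was set against that of the same genotypes at day 14, which shares no library with it. At day 14, 6438 genes changed (40.6%), and of the 5344 genes called on both days 5152 had the same sign. The difference itself differed between days in 3038 genes (19.2%), of which 1178 had a higher day 28 difference (7.43%) and 1860 a lower one (11.7%). Without library a of Cdh1+/F at day 28 that count was 1990. Of the muscle markers, 21 of 22 had a lower difference at day 28 (median -5.12 at day 28 and -2.39 at day 14), as did 11 of 14 fat markers (median -3.34 at day 28 and -0.59 at day 14). Some of these fat markers passed the filter only with Cdh1+/F libraries of day 28, as given above. For the 5 genes with the smallest p among the lower ones, the log2 differences at day 28 and at day 14 were -6.65 and -2.41 for Lama2, -5.16 and -0.42 for Ctsk, -3.14 and 0.05 for the lysosomal glycoprotein gene Gpnmb, -1.41 and 0.65 for the cholesterol exporter gene Abca1, and -5.73 and -2.30 for Ttn.

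The 20 epithelial genes had a median difference of 1.32 at day 28 and 0.55 at day 14, and the part of this shift in the differences between days was not tested. Higher differences at day 28 included every mitosis gene, 32 of 32 (median 2.55 at day 28 and 1.11 at day 14), and 22 of 32 S phase genes. All 23 tested cholesterol genes had a higher difference at day 28 as well, with medians of 0.84 at day 28 and -0.36 at day 14. Cyp51, which acts in sterol synthesis, had a difference of 0.40 at day 28 and -1.13 at day 14. The retinaldehyde dehydrogenase gene Aldh1a3, a marker of luminal progenitors, had 1.65 at day 28 and -0.997 at day 14, the LIM domain gene Crip1 2.07 and -0.25, the endotoxin co-receptor gene Cd14 1.31 and 0.04, and the pentraxin gene Ptx3 1.00 and -0.44. At day 28 itself, Aldh1a3 had 10700 and 9933 normalised counts in libraries labelled Cdh1F/F, against 3328 and 3252 in those labelled Cdh1+/F, with groups that did not overlap.

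**Figure D4:**
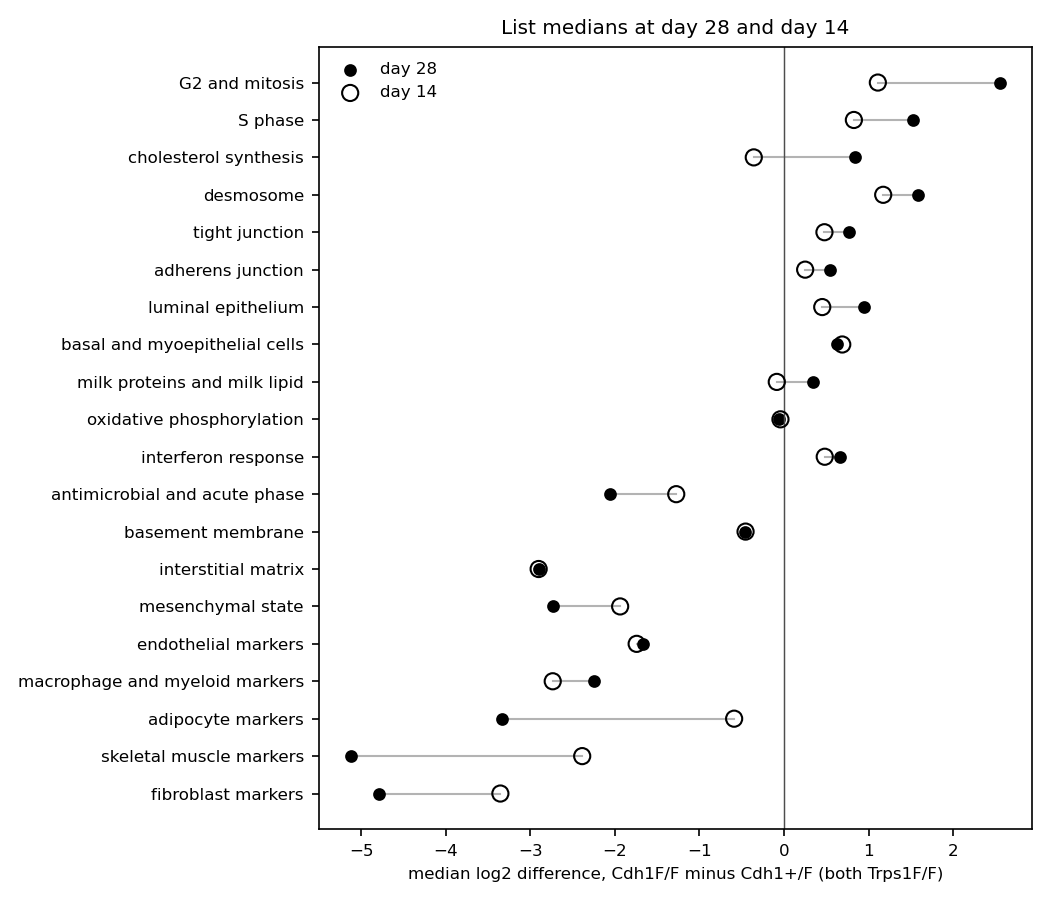
Median log2 difference (Cdh1F/F minus Cdh1+/F, both Trps1F/F) of 20 gene lists at day 28 (filled circles) and at day 14 (open circles), joined per list. The mitosis median is 2.55 at day 28 and 1.11 at day 14, the cholesterol median 0.84 and -0.36, and the muscle median -5.12 and -2.39.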

How the data were processed

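The deposited organoid table holds log2 values of normalised counts made by the authors, per the file headers. The submitters' processing notes name TopHat, HTSeq and the build GRCm38, without versions. Per the labels' protocols, RNA had an integrity number above 8 and libraries came from a TruSeq kit. Whether it keeps strand is not stated, so genes that overlap on opposite strands are uncertain. Each value was log2 of 1 plus the product of a whole read number and the library's factor: 100% of values came out whole within 0.01 reads or a share of 1e-05. The 12 libraries held 14858175 to 30341900 reads, without molecular identifiers, so intervals cover counting error only.

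Rows without a gene symbol (1) and symbols turned into dates (14) were left out. Of 12 columns 8 share a header, so replicates of Cdh1+/F are called a and b. The 15860 genes with a normalised count plus 1 of at least 10 in at least 2 libraries were fitted with limma 3.58.1 in R 4.3.3 (trend), with 6 groups of all 12 organoid libraries in 1 model, and changed at a Benjamini-Hochberg adjusted p under 0.05. Fits were tested on simulated data. Symbols were matched to GENCODE M21 (95.1%).

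Named were Trps1, Cdh1, the 12 largest rises and falls with groups that did not overlap and a mean above the median of genes, 5 genes per sign for the difference between days, and members of 39 lists with the smallest p. Kif23, Ube2c, Ccnb1, Idi1, Tm7sf2 and Pmvk were named for the size of their difference, among list members matched to the promoter table and not on chromosome 18. Some markers that define a cell type were named whatever their p. Members and lists were chosen with earlier results of these data known. Alternatives were the 4 libraries alone, other filters, a pseudocount of 8, common median and quantile scaling, voom on the recovered reads, no variance trend, each library left out, and, added after seeing the data, scaling to 20 epithelial genes. Figures were drawn with matplotlib 3.10.9 in Python 3.11.15. Some results are not reported here.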

Additional observations from a re-analysis of the deposited data

Results flagged for a closer look

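The contrast of Cdh1F/F;Trps1F/F with Cdh1+/F;Trps1F/F differed between day 28 and day 14 in 3038 genes, by an interaction contrast in limma with Benjamini-Hochberg adjustment. Each value below is the log2 difference at day 28 minus that at day 14, and the spread behind it is that of 2 libraries per group.

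Genes named for the largest rise or fall were picked by their day 28 difference in these same libraries. That choice favours a larger difference on that day, so their values are no independent support. Among the 12 genes named for the largest rise at day 28, the difference was larger at day 28 for Defb1 (2.56), Ugt8a (2.36), Gpx2 (1.77), Igfbp3 (1.78) and Fbp1 (1.71). Among the 12 named for the largest fall it was more negative for Mfap4 (-1.69), Lum (-4.65), Car3 (-7.73), C7 (-1.71), Akr1c14 (-2.27) and Fgl2 (-4.47). The value of Car3 depends on the added count, since both day 28 libraries labelled Cdh1F/F had no read. Those of Mfap4, C7 and Akr1c14 depend on it too, with 1.03 to 5.16 normalised counts in these libraries. In libraries labelled Cdh1+/F, Defb1 had 1.5 and 7.12 normalised counts at day 28, and Gpx2 had 6.22 and 2.41 at day 14. The values of Defb1 and Gpx2 therefore also depend on the added count. For Cdh1 it was 0.70.

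The genes with the smallest p had values of 2.64 for Aldh1a3, 2.32 for Crip1, 1.52 for Cyp51, 1.27 for Cd14 and 1.44 for Ptx3. In the other direction they were -4.23 for Lama2, -4.74 for Ctsk, -3.19 for Gpnmb, -2.06 for Abca1 and -3.44 for Ttn.

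In 7 lists most of the tested members had a difference that differed between days in 1 direction. The difference was higher in 32 of 32 mitosis, 22 of 32 S phase and 23 of 23 cholesterol synthesis genes at day 28. It was also higher in 18 of 35 luminal genes and lower in 2 of them. Over all 15860 genes, 7.43% had a higher difference at day 28 and 11.7% a lower one. The difference was lower in 21 of 22 skeletal muscle markers and 11 of 14 fat cell markers. Of 30 genes of the mesenchymal state it was lower in 16 and higher in 3.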

How the results depend on the processing

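Cdh1 and Trps1 kept their direction and call under each alternative listed in the methods other than the epithelial scaling. Without 1 library at a time, the log2 difference ran from 0.72 to 0.84 for Cdh1 and from 1.10 to 1.69 for Trps1, with 7492 to 8155 genes changed, 3611 to 3916 raised and 3881 to 4239 lowered. List members called ran from 673 to 692, against 725 with all libraries, where 8993 of 15860 genes changed (56.7%). Genes called within 5 Mb of Cdh1 ran from 48 to 59, against 64 of 114 with all libraries (56.1%). Genes whose difference differed between days ran from 1990 to 2829. The cause of the drop to 1990 without library a of Cdh1+/F was not tested. No paired analysis was possible because the Cdh1+/F columns carry no distinct replicate numbers. The fit of the 4 libraries alone gives no difference between days.

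The 1 alternative added after seeing the data was scaling to a common median of 20 epithelial genes. With it 14641 of 15860 genes changed, with 433 raised, 14208 lowered and 7888 differing between days. Beside that share over all genes, it called 105 of the 114 genes within 5 Mb of Cdh1. By construction it lowers each log2 difference by about the same amount, so that genes with a smaller rise turn, and these values place a gene relative to the set and are no separate test. Dsp, Jup, Lsr, Marveld2, Epcam, Esrp1 and Grhl2 belong to the set. It turned Cdh1 to -0.64 and Trps1 to -0.024. Junction genes also turned: Cdh3 (-0.13), Cldn3 (-0.013), Ctnna1 (-0.85), Ctnnb1 (-1.25), Dsp (-0.095), Jup (-0.0093), Lsr (-0.11), Marveld2 (-0.48), Mllt4 (-0.62), Pvrl2 (-0.43) and Pvrl4 (-0.28). So did the epithelial genes Epcam (-0.47), Erbb3 (-0.65), Esrp1 (-0.44), Gata3 (-0.56), Grhl2 (-0.49), Lalba (-0.0082), Sox10 (-0.65), Stat5a (-0.84) and Cd14 (-0.11). Sterol genes turned as well: Cyp51 (-1.02), Idi1 (-0.059), Pmvk (-0.41), Sqle (-0.44) and Tm7sf2 (-0.35). The rest were Chd4 (-1.37), Hdac2 (-1.27), Ddx58 (-0.35), Pecam1 (-1.26) and Ptx3 (-0.42).

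With 2 libraries per group, their number limits the precision of each difference. For Car3, Kera, Col6a5 and Mfap4, with at most 3 reads in the libraries labelled Cdh1F/F, depth limits it too. The same holds for Defb1, with 1 and 8 reads in the libraries labelled Cdh1+/F.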
